A study of Mus musculus with 12 samples.

Results

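The genes described here encode splicing factors and other RNA-binding proteins, measured in the livers of mice with CCl4-induced fibrosis. They were chosen by symbol alone: the numbered Srsf genes, all Hnrnp genes, the numbered Rbm genes, Cirbp, Tra2a and Tra2b. This gave 67 genes with 206 transcripts among the 14188 genes and 29883 transcripts of the protein-coding table, and 6 further symbols that match the rule (Rbm11, Rbm24, Rbm31y, Rbm44, Rbm8a2 and Srsf12) were not analysed here. Of the 67 genes, 50 had 2 or more listed transcripts, 17 had 1, and Hnrnpk had 14. All 206 transcripts were annotated as protein coding, so isoforms of these genes annotated as nonsense-mediated decay targets (69 in GENCODE M21) or retained introns (156) were not measured here.

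Total liver RNA was sequenced from 12 mice, 6 in each of the PZH and control groups. All 12 were male mice of a strain that the labels call C57BL/8 and the paper calls C57BL/6J. They were 6 weeks old at the start, received a CCl4 and corn oil mixture by intraperitoneal injection at 10 µl/g, 2 times per week, and were killed at week 8. The PZH group was also given Pien Tze Huang (PZH), a traditional Chinese medicine, by gavage at 0.25 mg/g each day, and the control group was given double distilled water in its place. A group without CCl4 was not analysed here, so every difference below is between treated and untreated fibrotic livers. Values are FPKM, fragment numbers scaled by transcript length and by the mapped total of the library. A gene sum is the total FPKM of a gene's listed transcripts, a fold change is the difference of group means on the log2(FPKM + 1) scale, PZH minus control, and a gene passed the test at a limma p below 0.05 after Benjamini-Hochberg adjustment over the whole table.

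SR proteins carry arginine- and serine-rich domains, bind exonic enhancers and help to recruit the splicing machinery. Heterogeneous nuclear ribonucleoproteins (hnRNPs) coat nascent transcripts and often act against SR proteins at nearby sites. The numbered Rbm proteins share an RNA recognition motif and otherwise have diverse jobs in splicing, RNA modification, ribosome assembly and decay. Cirbp and Rbm3 are small glycine-rich RNA-binding proteins whose transcripts are known to rise on mild cooling. Many of these proteins regulate the splicing of their own transcripts. Several of their genes also make products that differ by a short coding segment. The segments whose use is reported below are shown here because they are what distinguishes the products. Capitals mark the segment and lower case marks the neighbouring coding bases of the same transcript, 5′ to 3′ on the coding strand, from GENCODE M21 on GRCm38.

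The 36-base insert of Hnrnpa2b1 near the start codon (chr6:51467391-51467426, minus strand) separates the longer B1 form from the A2 form.
Hnrnpa2b1, 36 bases: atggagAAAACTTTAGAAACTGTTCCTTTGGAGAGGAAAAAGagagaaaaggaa
The 2 alternative segments of Hnrnpc lie at chr14:52081789-52081827 and chr14:52075416-52075436, both on the minus strand, and the first is the one that separates the C2 and C1 forms.
Hnrnpc, 39 bases: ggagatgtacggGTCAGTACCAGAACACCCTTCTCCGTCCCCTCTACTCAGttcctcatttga
Hnrnpc, 21 bases: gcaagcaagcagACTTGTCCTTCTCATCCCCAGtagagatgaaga
The 57-base segment of Hnrnpd (chr5:99976534-99976590, minus strand) and its 147-base segment (chr5:99963731-99963877, minus strand) are used in combination to give the AUF1 isoforms.
Hnrnpd, 57 bases: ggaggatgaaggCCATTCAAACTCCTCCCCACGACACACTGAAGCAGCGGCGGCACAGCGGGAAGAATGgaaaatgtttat
Hnrnpd, 147 bases: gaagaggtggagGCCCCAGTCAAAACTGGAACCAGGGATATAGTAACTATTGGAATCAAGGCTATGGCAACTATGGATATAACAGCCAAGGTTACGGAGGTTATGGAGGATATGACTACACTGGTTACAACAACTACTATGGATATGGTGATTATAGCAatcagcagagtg
The 66-base segment of Hnrnpa3 (chr2:75659324-75659389, plus strand) follows directly on the start of the coding sequence.
Hnrnpa3, 66 bases: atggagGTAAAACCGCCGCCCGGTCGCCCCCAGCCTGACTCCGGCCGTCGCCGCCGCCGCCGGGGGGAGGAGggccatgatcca
The 111-base segment of Hnrnpl (chr7:28818533-28818643, plus strand) begins with GT and ends with AG, the letters found at the ends of most introns, and is coding in Hnrnpl-209.
Hnrnpl, 111 bases: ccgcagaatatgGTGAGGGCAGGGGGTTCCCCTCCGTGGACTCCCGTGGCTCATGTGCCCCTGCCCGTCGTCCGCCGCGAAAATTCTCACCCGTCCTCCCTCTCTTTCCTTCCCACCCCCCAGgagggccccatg
The 9-base segment of Srsf7 (chr17:80204122-80204130, minus strand) lengthens the exon that encodes part of its arginine- and serine-rich domain.
Srsf7, 9 bases: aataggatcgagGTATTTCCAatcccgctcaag

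In the FPKM as deposited, 57 of the 67 gene sums had a mean change below 0 in the PZH group, 33 of them passed the test as lower (49.3% of the 67), and 1 gene passed as higher (1.5%). Across all 14188 genes, 32.1% passed as lower and 12.7% as higher. The median fold change of the 67 genes was -0.24 on the log2 scale, against -0.11 over all genes. Of the 67 genes, 65 had a mean of at least 1 FPKM, against 10948 of all 14188 genes. Adding 1 before the log shrinks changes at low levels, and the part of expression level in these differences was not tested. No gene of the set changed by 2-fold on this scale, and the estimates ran from -0.80 (Rbm15b) to 0.41 (Rbm47). The summed FPKM of the 67 genes was between 703.5 and 888.9 in the PZH mice and between 900.2 and 989.8 in the control mice, so the groups did not overlap. In bulk liver RNA, fewer cells of a type and less RNA per cell cannot be told apart.

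These counts depended on how the mice were scaled to each other. FPKM is a share of all fragments, and albumin alone made up 10.2 to 12.7% of the FPKM sum in the PZH mice against 5.54 to 8.86% in the control mice, with no overlap (exact permutation test, two-sided p = 0.00216, the smallest that 6 against 6 mice can give). The part of albumin in the lower values of the set was not tested. After division of each mouse by its median-ratio scale factor, the factor that brings the median transcript to the same level in each mouse, 15 of the 67 genes passed as lower (22.4%) and 5 as higher, against 19.7% lower and 19.3% higher over all genes. Under that scaling the median of all genes moved from -0.11 to -0.005 and that of the 67 genes to -0.08, with 43 of the 67 estimates below 0. The 15 genes that passed as lower there had all passed as lower in the FPKM as deposited. In 13 of the 67 genes (19.4%) every PZH mouse was below every control mouse in the FPKM as deposited, which was the case for 17.9% of all genes. The plot of fold changes gives both scalings for each gene.

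**Figure D1:**
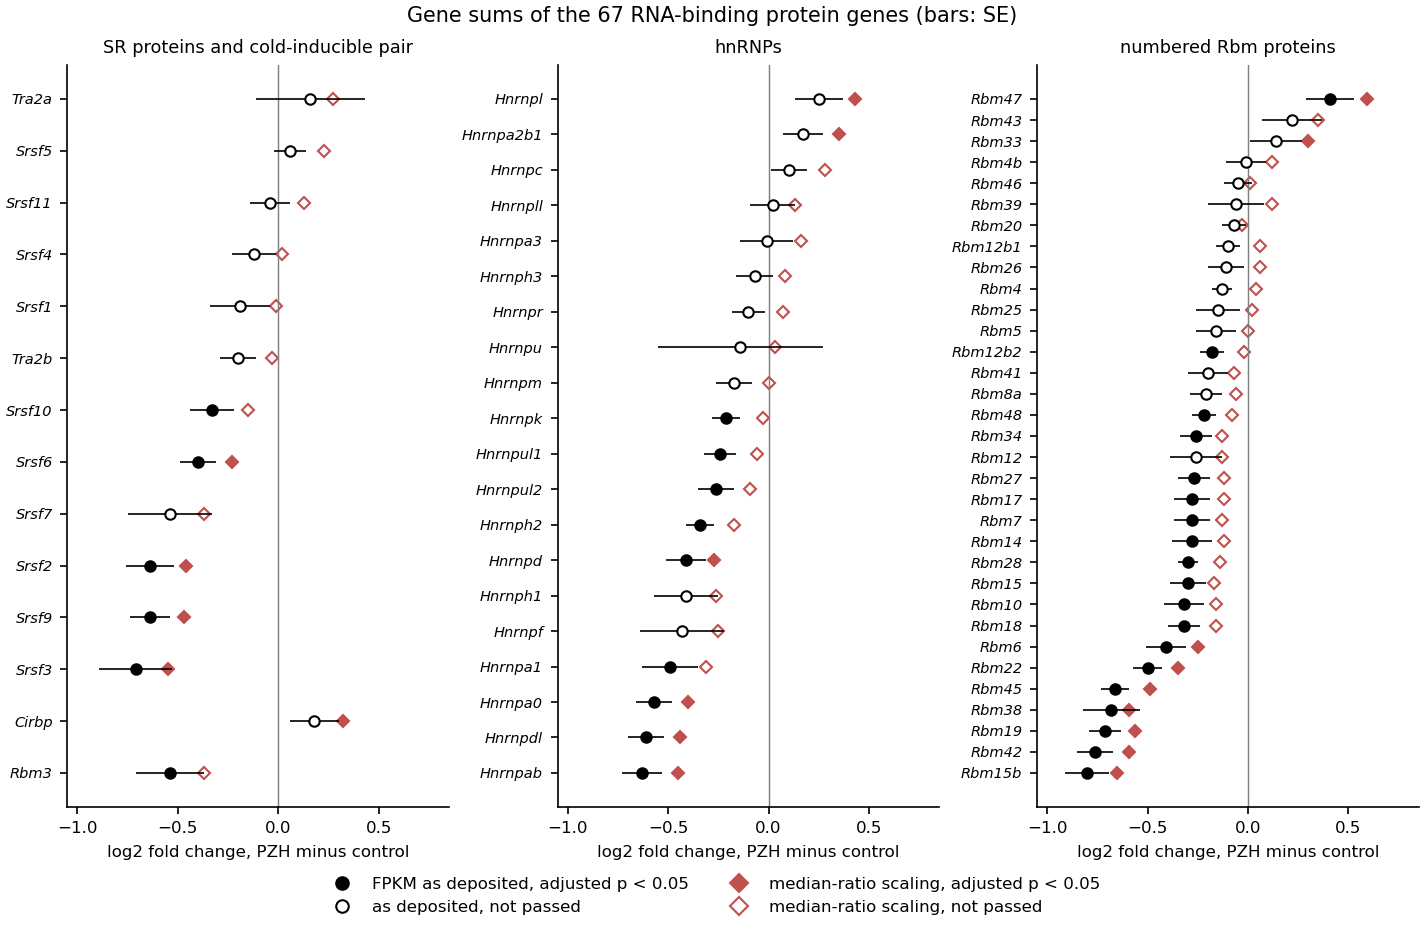
Log2 fold change of each of the 67 gene sums, PZH minus control (x axis, log2(FPKM + 1) scale), by family. Black circles with SE bars are FPKM as deposited and red diamonds are values after median-ratio scaling, and filled symbols passed at an adjusted p below 0.05: 33 black circles are filled on the left of 0 and 15 red diamonds are, while Rbm47 is the 1 gene filled on the right in both.

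Among the 12 SR protein genes, 5 passed as lower and 0 as higher (limma, with 0 higher at an unadjusted p below 0.05 also), with a median fold change of -0.26. After median-ratio scaling 4 remained lower: Srsf2, Srsf3, Srsf6 and Srsf9. As deposited the share lower was 41.7%, against 32.1% of all genes, and after scaling it was 33.3% against 19.7%. Srsf9 (ENSMUSG00000029538), which acts on both constitutive and alternative splice sites, had 5.16, 6.98 and 8.38 FPKM as the lowest, median and highest PZH mouse and 9.36, 11.7 and 11.9 FPKM in the control group. All PZH mice were below all control mice. The fold change was -0.64 ± 0.10 (SE, n = 6 per group, adjusted p = 0.000227).

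Srsf3 (ENSMUSG00000071172), the smallest SR protein, which also links splicing to mRNA export, was measured through its single listed transcript, Srsf3-202. It was at 2.98, 4.83 and 8.68 FPKM (lowest, median, highest) in the PZH group and at 8.03, 8.71 and 10.8 FPKM in the control group. PZH 1 alone lay within the control range. Its fold change was -0.71 ± 0.18 (adjusted p = 0.00657), with the widest error among the SR genes that passed. Srsf2 (ENSMUSG00000034120), an SR protein long used to mark nuclear speckles, was at 19.0, 20.5 and 30.4 FPKM in the PZH group and at 26.5, 35.0 and 39.4 FPKM in the control group. The groups overlapped only through PZH 2 and Control 4, and the fold change was -0.64 ± 0.12 (adjusted p = 0.000916). Srsf6 fell by 0.40 on the log2 scale with no overlap (adjusted p = 0.00218). Srsf10, which is known to repress splicing after heat shock when it loses its phosphate groups, fell by 0.33 (adjusted p = 0.0336) but had -0.15 after median-ratio scaling (adjusted p = 0.363).

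The other SR genes did not pass. Srsf7 had a fold change of -0.54 ± 0.21 (adjusted p = 0.0532), and it passed without PZH 1, PZH 2 or Control 4, with values of -0.64, -0.67 and -0.61. Srsf1, the founding member of the family, had -0.19 ± 0.15 (adjusted p = 0.338), and without PZH 2 it had -0.31 (adjusted p = 0.0444). Srsf5 had 0.06 ± 0.08 and Srsf11 had -0.04 ± 0.10. Tra2b, which binds GAA-rich enhancers, had -0.20 ± 0.09 (adjusted p = 0.0742), passed without PZH 1 at -0.24 and without PZH 2 at -0.26, and had -0.03 after median-ratio scaling. Its paralogue Tra2a was at 1.09 to 3.92 FPKM in the PZH group and at 0.796 to 3.44 FPKM in the control group, with a fold change of 0.16 ± 0.27, so the spread between mice exceeded the difference.

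**Figure D2:**
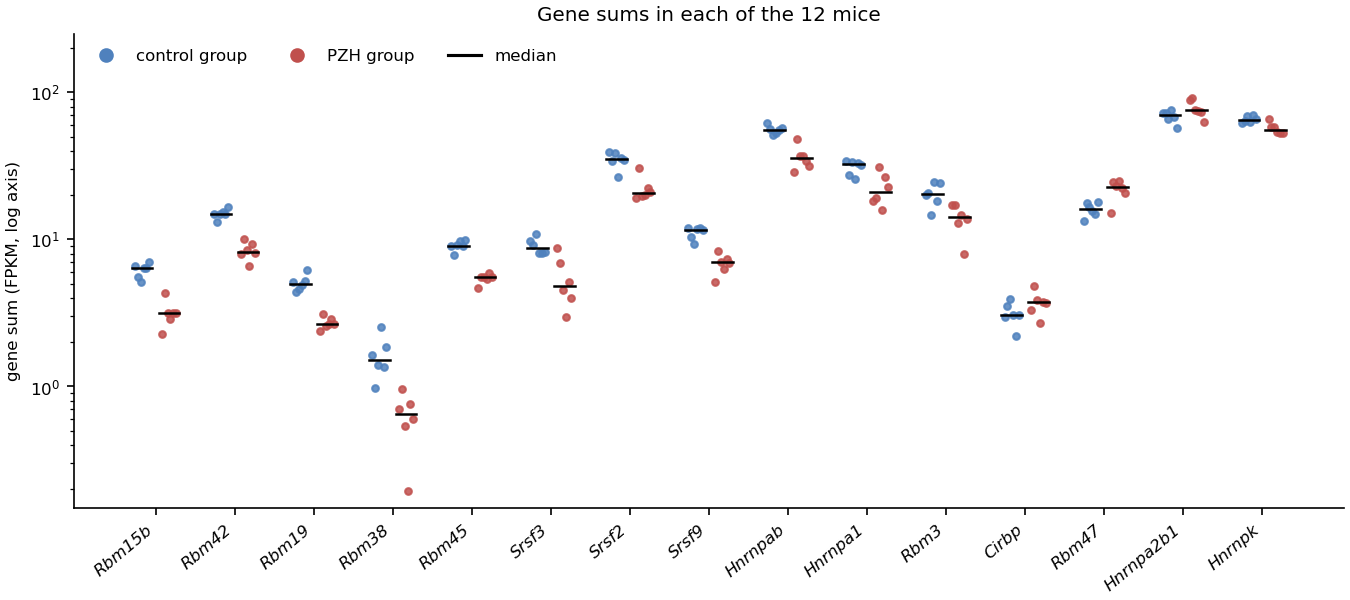
Gene sums (FPKM, log axis) of 15 of the genes in each of the 12 mice, control group in blue and PZH group in red, with a bar at each group's median. The points of the groups are apart for Rbm15b, Rbm42, Rbm19, Rbm38, Rbm45, Srsf9 and Hnrnpab and overlap for Srsf3, Srsf2, Hnrnpa1, Rbm3, Cirbp, Rbm47, Hnrnpa2b1 and Hnrnpk.

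Of the 20 hnRNP genes, 9 passed as lower and 0 as higher (limma, 0 higher at an unadjusted p below 0.05), with a median of -0.22. After median-ratio scaling 4 passed as lower (Hnrnpab, Hnrnpdl, Hnrnpa0 and Hnrnpd) and 2 as higher (Hnrnpl and Hnrnpa2b1). As deposited the share lower was 45.0%, against 32.1% of all genes. After scaling, the 4 of 20 that passed as lower were a share near the 19.7% of all genes. Hnrnpab (ENSMUSG00000020358), an hnRNP of the A/B type and 1 of the 5 most abundant genes of the set, was at 28.7, 35.6 and 48.0 FPKM (lowest, median, highest) in the PZH group. The control group had 50.9, 55.6 and 61.99 FPKM, so the groups did not overlap. The fold change was -0.63 ± 0.10 (adjusted p = 0.000405), and all 3 listed Hnrnpab transcripts passed as lower. Hnrnpdl, a close relative of Hnrnpd, fell by 0.61 (adjusted p = 0.000211), and Hnrnpa0, a single-exon gene whose product binds AU-rich elements, fell by 0.57 (adjusted p = 0.00027), both without overlap. Hnrnpd (AUF1), which binds AU-rich elements and promotes decay, fell by 0.41 (adjusted p = 0.00353). Hnrnph2 fell by 0.34 with no overlap (adjusted p = 0.00156) and had -0.17 after median-ratio scaling (adjusted p = 0.0988).

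Among the other hnRNPs, Hnrnpa2b1 was at 62.4, 75.3 and 91.1 FPKM in the PZH group and at 57.6, 70.4 and 75.7 FPKM in the control group, and these ranges overlapped. Its fold change was 0.17 ± 0.10 (adjusted p = 0.185), and after median-ratio scaling it passed as higher at 0.35 (adjusted p = 0.023). Hnrnpk, a poly(C)-binding protein, fell by 0.21 (adjusted p = 0.0224). That call was lost without PZH 4 (adjusted p = 0.0505), PZH 6 (0.0515) or Control 5 (0.0527), at -0.19 each, and the value was -0.03 after median-ratio scaling (adjusted p = 0.83). Hnrnpc, which binds uridine tracts, had 0.10 ± 0.09 (adjusted p = 0.372). Hnrnpf had -0.43 ± 0.21 (adjusted p = 0.118), and it passed at -0.55 without PZH 1 (adjusted p = 0.043). Hnrnpa1, the best known splicing repressor of the group, was at 16.0, 20.9 and 31.1 FPKM in the PZH group and at 25.9, 32.5 and 34.1 FPKM in the control group, and 4 of 6 PZH mice were below every control mouse. Its fold change was -0.49 ± 0.14 (adjusted p = 0.0147) and -0.31 after median-ratio scaling (adjusted p = 0.0785). Its many processed pseudogenes can take some of its reads, so its level is uncertain. Hnrnpl, which binds CA repeats, had 0.25 ± 0.12 (adjusted p = 0.0979) and 0.43 after median-ratio scaling (adjusted p = 0.00457).

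The numbered Rbm genes other than Rbm3 held 18 of 33 that passed as lower and 1 that passed as higher, with a median of -0.26. After median-ratio scaling 7 passed as lower and 2 as higher. The share lower was 54.5% as deposited, against 32.1% of all genes. After scaling it was 21.2%, near the 19.7% of all genes. The 5 with the largest falls had no overlap between groups. Rbm15b (ENSMUSG00000074102), a partner of the complex that writes m6A on RNA, was at 2.27, 3.16 and 4.33 FPKM in the PZH group and at 5.10, 6.39 and 7.04 FPKM in the control group. Its PZH mean was 51.1% of the control mean, with a fold change of -0.80 ± 0.11 (adjusted p = 0.000104). Its paralogue Rbm15 fell by less, 0.30 on the log2 scale (adjusted p = 0.0138), and had -0.17 after median-ratio scaling (adjusted p = 0.132).

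Rbm42 (ENSMUSG00000036733), a nuclear protein that binds Hnrnpk, was at 6.59, 8.25 and 10.1 FPKM in the PZH group and at 13.1, 14.8 and 16.7 FPKM in the control group. The lowest control mouse was above the highest PZH mouse, and the fold change was -0.76 ± 0.09 (adjusted p = 4.59e-05). Rbm19 (ENSMUSG00000029594), a nucleolar protein of ribosomal RNA processing, was at 2.38, 2.65 and 3.12 FPKM in the PZH group and at 4.36, 5.001 and 6.195 FPKM in the control group. Again the groups were apart, with a fold change of -0.71 ± 0.08 (adjusted p = 3.04e-05). Rbm45 had PZH mice between 4.64 and 5.88 FPKM and control mice between 7.87 and 9.86 FPKM, and a fold change of -0.66 ± 0.07 (adjusted p = 2.45e-05). Rbm38, a p53 target that binds the mRNA of cell cycle inhibitors, was low throughout, at 0.194 to 0.958 FPKM in the PZH group against 0.982 to 2.53 FPKM in the control group. Its fold change was -0.68 ± 0.14 (adjusted p = 0.00171), which the pseudocount of 1 shrinks at this level, since its PZH mean was 38.5% of the control mean. All 5 also passed as lower after median-ratio scaling, at -0.65 (Rbm15b), -0.59 (Rbm42), -0.56 (Rbm19), -0.49 (Rbm45) and -0.59 (Rbm38).

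Smaller falls included Rbm22, a protein of the spliceosome's catalytic core, which fell by 0.50 with no overlap (adjusted p = 0.00014), and Rbm28, a nucleolar protein, which fell by 0.30 with no overlap (adjusted p = 0.000796) but had -0.14 after median-ratio scaling (adjusted p = 0.0597). The related splicing regulators Rbm5, Rbm6 and Rbm10 had fold changes of -0.16 (adjusted p = 0.211), -0.41 (adjusted p = 0.00622) and -0.32 (adjusted p = 0.0225), and Rbm10 had -0.16 after median-ratio scaling (adjusted p = 0.242). Rbm39, a relative of the U2AF splicing factor, had -0.06 ± 0.14 (adjusted p = 0.763), 0.12 after median-ratio scaling and 0.04 without PZH 5, so its direction was not set. Rbm8a, the Y14 protein of the exon junction complex, had -0.21 (adjusted p = 0.0512). Rbm20, known for titin splicing in muscle, and Rbm46, known from germ cells, were the 2 genes with a mean below 1 FPKM, and neither passed. The near-copies Rbm4 and Rbm4b, and Rbm12b1 and Rbm12b2, may share reads, so how their FPKM divides between them is uncertain.

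Rbm47 (ENSMUSG00000070780) was the single gene of the set that passed as higher in the FPKM as deposited. After median-ratio scaling 4 more passed as higher, namely Hnrnpl, Hnrnpa2b1, Cirbp and Rbm33, of which Rbm33 (0.30, adjusted p = 0.0478) was named after its values were seen. Rbm47 encodes a cofactor of Apobec1, the enzyme that edits apolipoprotein B mRNA. It was at 15.1, 22.8 and 25.0 FPKM in the PZH group and at 13.3, 16.1 and 18.05 FPKM in the control group. In 5 of 6 PZH mice the value was above every control mouse, and PZH 1 lay within the control range. Its PZH mean was 136% of the control mean, with a fold change of 0.41 ± 0.12 (adjusted p = 0.0115), 0.37 to 0.51 with 1 mouse left out, and 0.59 after median-ratio scaling (adjusted p = 0.00052).

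The cold-inducible pair did not move together. Rbm3 (ENSMUSG00000031167) was at 7.97, 14.2 and 17.3 FPKM in the PZH group and at 14.7, 20.4 and 24.5 FPKM in the control group. In 4 of 6 PZH mice it was below every control mouse. It fell by 0.54 on the log2 scale (SE 0.17, adjusted p = 0.0205), and after median-ratio scaling it had -0.37 (adjusted p = 0.14). Cirbp (ENSMUSG00000045193) was at 2.69, 3.74 and 4.81 FPKM in the PZH group and at 2.21, 3.06 and 3.96 FPKM in the control group, and the groups overlapped. It had a fold change of 0.18 ± 0.12 (adjusted p = 0.22), and after median-ratio scaling it passed as higher at 0.32 (adjusted p = 0.0315). Over the 12 mice, the genes outside the set whose log2 gene sums followed Rbm3 most closely were Fgfr1op (Pearson r = 0.924), Stk4 (0.916), Trmt1 (0.902), Mad2l1bp (0.886) and Rnf121 (0.886). Those closest to Cirbp were Ccdc181 (0.863), Vmac (0.846), Mrps12 (0.839), Entpd6 (0.824) and Ganc (0.822). These were the highest of all genes with a mean of at least 1 FPKM, and the 12 points share their libraries and group difference, so they are descriptions without a test.

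Single transcripts were then compared. Of the 206, 33 passed as lower (16.0%), from 29 genes, and 2 as higher (0.97%), against 14.0% lower and 5.73% higher over all 29883 transcripts. The count of lower transcripts was 20 without PZH 4, 20 without PZH 6 and 12 after median-ratio scaling. Counts over all transcripts in these settings are not given here, so a shift of the whole table is not told apart from one of the set. The largest fall was that of Rbm3-201, which has the same coding length as Rbm3-203 and ends at a more distant last exon. It was listed at 0 in 4 PZH mice and at 1.76 and 2.18 FPKM in the other 2, and it was at 1.002 to 7.17 FPKM in the control group. The groups overlapped through Control 5, and the transcript fell by 1.68 on the log2 scale (SE 0.40, adjusted p = 0.0118). Rbm3-203, at 2.40 to 8.26 FPKM in the PZH group against 6.10 to 9.89 FPKM in the control group, had -0.29 ± 0.23 (adjusted p = 0.443). The share of Rbm3-201 in its gene had a median of 0% in the PZH group against 19.7%  in the control group, a usage difference that did not pass (adjusted p = 0.176).

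The other 5 transcripts with the largest falls belonged to genes described above: Rbm15b-201, Rbm19-201, Srsf7-208, Srsf3-202 and Rbm45-201. All but Srsf7-208 are the single listed transcripts of their genes and so repeat the gene sums, but over the transcript table Srsf3-202 did not pass after median-ratio scaling (-0.55, adjusted p = 0.0868). Srsf7-208, the main coding form of Srsf7, was at 1.97, 4.73 and 7.24 FPKM in the PZH group and at 5.46, 8.09 and 9.32 FPKM in the control group. The groups overlapped, and it fell by 0.71 (adjusted p = 0.0375). That call was lost without PZH 3, PZH 4 or any control mouse but Control 4, with values of -0.66 to -0.70, and after median-ratio scaling at -0.55 (adjusted p = 0.127).

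The 2 transcripts that rose were Hnrnpc-207 and Rbm47-213. Hnrnpc-207 was at 4.25 to 8.42 FPKM in the PZH group and at 2.33 to 5.04 FPKM in the control group, and rose by 0.62 (adjusted p = 0.0398). Its ranges overlapped, and the call was lost without PZH 1, 2, 3 or 6 or Control 1, 4, 5 or 6, with values of 0.52 to 0.66. Rbm47-213, which has a coding length of 39 bases, was at 0.963 to 1.501 FPKM in the PZH group and at 0.460 to 0.872 FPKM in the control group, without overlap, and rose by 0.41 (adjusted p = 0.00511).

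At the criterion of a 2-fold change with an unadjusted p below 0.05, 7 of the 206 transcripts passed (3.4%), 3 higher and 4 lower, against 3.23% of all transcripts. The count was 4 without Control 1 and 13 with a pseudocount of 0.1, settings for which the share over all transcripts is not given here. In 5 of the 7 the transcript was listed at 0 in at least 1 mouse. Hnrnpa3 is an example of a gene with a form at 0 in some mice. Its form with the 66-base segment printed above, Hnrnpa3-204, was at 8.503 to 14.1 FPKM in 9 mice and at 0 in PZH 3, PZH 4 and PZH 5. In those mice the form without it, Hnrnpa3-203, was at 15.1, 12.8 and 14.0 FPKM. Hnrnpa3-203 was at 0 in the other 9 mice. The Hnrnpa3 gene sum had a fold change of -0.01 ± 0.13. Rbm47-205 and Rbm47-202 have the same coding length and differ in their first exons. Rbm47-205 was at 0 in PZH 1 and PZH 4, where Rbm47-202 was at 11.5 and 19.2 FPKM, and Rbm47-202 was at or below 0.745 FPKM in the other 10 mice. Such all-or-none values were found in 11 of the 206 transcripts, which were at 0 in some mice and at 5 FPKM or more in others. The share over all transcripts is not given here, so these values are not shown to be particular to the set. The cause of these values was not tested. Hnrnpu, whose single listed transcript ranged from 5.42 to 22.7 FPKM in the PZH group and from 5.33 to 22.8 FPKM in the control group, varied as widely with no alternative form listed.

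**Figure D3:**
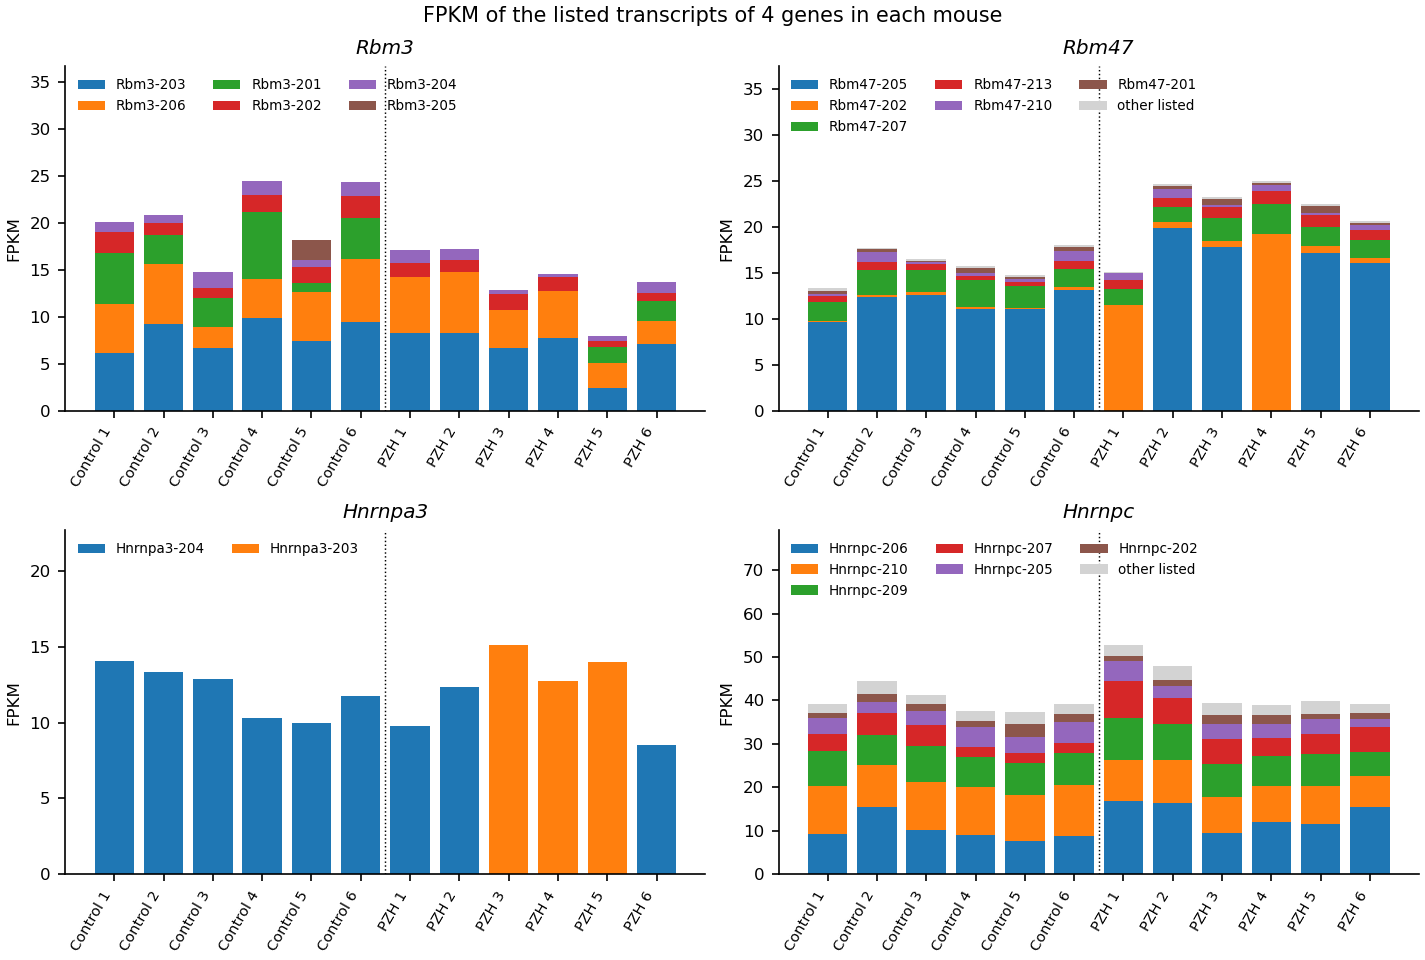
FPKM of the listed transcripts (stacked bars, y axis) of Rbm3, Rbm47, Hnrnpa3 and Hnrnpc in each mouse, control mice left of the dotted line and PZH mice right of it. Rbm3-201 (green) is at 0 in 4 PZH mice, Rbm47-202 takes the place of Rbm47-205 in PZH 1 and PZH 4, and Hnrnpa3-203 takes the place of Hnrnpa3-204 in PZH 3, 4 and 5.

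Transcript usage was tested as the log2 ratio of a transcript's FPKM to that of the other listed transcripts of its gene. Of the 189 transcripts of the set in genes with several forms, 4 passed (2.12%), against 6.01% of 23087 transcripts over all genes. The share of Hnrnpc-210 in its gene was 17.7, 20.7 and 21.8% (lowest, median, highest) in the PZH group and 21.7, 28.3 and 29.9% in the control group. The ranges overlapped through PZH 5 and Control 2, and its usage fell by 0.55 on the log2 scale (adjusted p = 0.0236). Hnrnpc-206 held a median of 31.4% in the PZH group against 23.7% in the control group (adjusted p = 0.207). The usage of Rbm47-207, a short form with a coding length of 474 bases, fell by 0.60 (adjusted p = 0.0487), with a median share of 10.1% against 15.3%, while its own level had a fold change of -0.11 (adjusted p = 0.596) and 0.02 after median-ratio scaling. The usage of Hnrnpm-202 rose by 0.44 (adjusted p = 0.0495), with a median share of 8.17% against 4.51%. The usage of Hnrnpd-203 rose by 0.46 (adjusted p = 0.0308), but its highest level in any mouse was 0.186 FPKM. None of the 4 passed with a pseudocount of 0.1, and none without PZH 6 or without Control 1.

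Whether a coding segment was included was also compared, by summing the transcripts with it and those that skip it. This comparison was chosen after the data were seen. Of 33 segments in 22 genes of the set, 0 passed (limma, 5 at an unadjusted p below 0.05), against 3.59% of 3765 segments in all genes. The B1 insert of Hnrnpa2b1 was held by 0.509 to 0.995% of its FPKM in the PZH group and by 0.633 to 2.31% in the control group, so the A2 form made up nearly all of this gene in both (adjusted p = 0.36). The 39-base segment of Hnrnpc was held by 24.0% ± 2.81 (SD, n = 6) in the PZH group against 27.2% ± 3.205  in the control group (adjusted p = 0.391). Its 21-base segment was held by 27.6% ± 3.15 and 26.7% ± 1.41 (adjusted p = 0.857). The 57-base segment of Hnrnpd was held by 88.0% ± 3.30 and 87.4% ± 3.81. Its 147-base segment was held by 78.8 to 85.6% in the PZH group against 67.6 to 77.7% in the control group, which did not overlap as shares, but the log2 ratio did not pass (0.13 ± 0.12, adjusted p = 0.597).

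The lowest adjusted p among the segments printed above was that of the 9-base segment of Srsf7. It was held by 26.0, 27.8 and 49.7% of the FPKM in the PZH group (lowest, median, highest) and by 18.1, 20.9 and 27.6% in the control group. The ranges overlapped, and the log2 ratio was 0.73 ± 0.22 (adjusted p = 0.085). The intron-like 111-base segment of Hnrnpl was held by 58.0 to 72.3% in the PZH group and by 64.8 to 82.9% in the control group, with a log2 ratio of -0.62 ± 0.22 (adjusted p = 0.144).

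**Figure D4:**
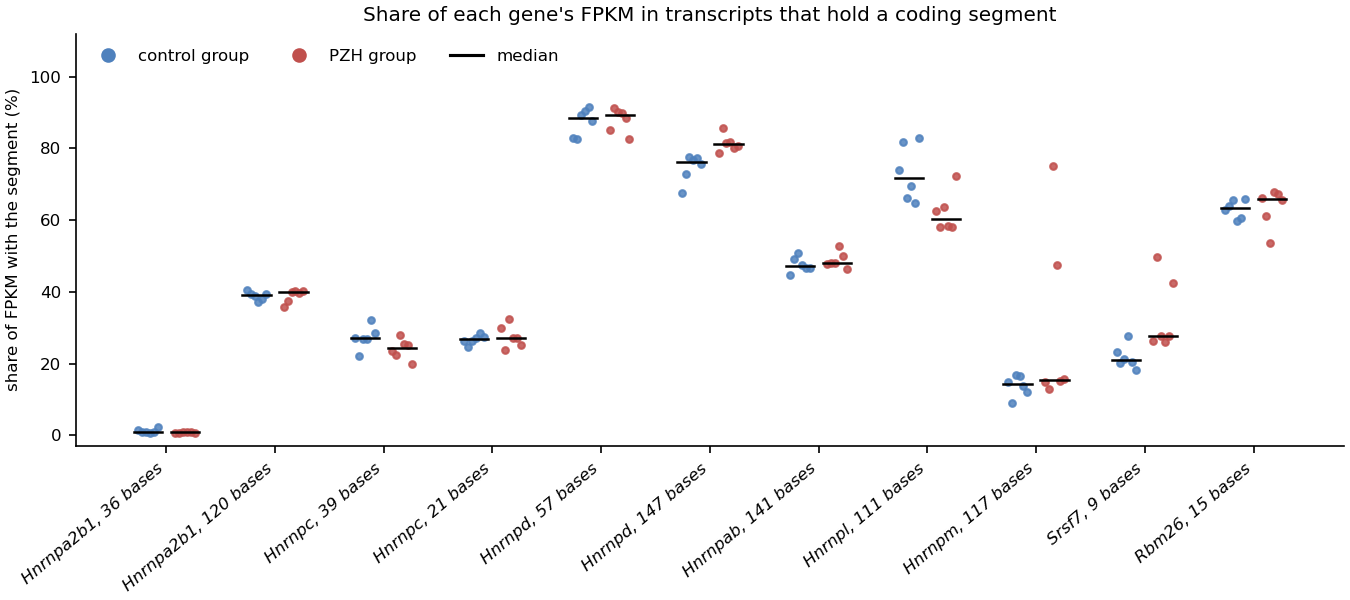
Share of a gene's FPKM (y axis, percent) in transcripts that hold a coding segment, for 11 segments (x axis, gene and length in bases), per mouse, with control mice in blue, PZH mice in red and a bar at each median. The PZH points of the 9-base segment of Srsf7 reach 49.7% against at most 27.6% in the control group, and 2 PZH mice stand apart in Hnrnpm; none of the segments passed the test.

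The partners of these proteins were described through lists of other genes of RNA processing, counted as above. The list named for U2, SF3 and U5 spliceosome proteins held 40 genes, some of other kinds, such as the U1-associated Luc7l. Of these 40, 28 passed as lower and 0 as higher (limma, 0 higher at an unadjusted p below 0.05), with a median of -0.36. After median-ratio scaling 16 passed as lower and 2 as higher. The SF3 subunit gene Sf3b4, part of the machinery that recognises the branch point, fell by 0.94 (adjusted p = 4.29e-05), and Sf3a1 and Sf3a3 fell by 0.67 and 0.66. Luc7l, a U1-associated factor, fell by 0.86. Of 20 snRNP core genes, 7 passed as lower and 1 as higher, and 2 as lower and 1 as higher after median-ratio scaling. Snrpa, a U1 snRNP protein, fell by 0.64 (adjusted p = 7.86e-05), as did Snrpd1 by 0.65 and Lsm8 by 0.49, while Snrpn rose by 0.71 (adjusted p = 0.000356). Of these, Lsm8 did not pass after median-ratio scaling (-0.34, adjusted p = 0.0603).

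Of 17 exon junction and nonsense-mediated decay factors, 13 passed as lower and 0 as higher (limma, 0 higher at an unadjusted p below 0.05), with a median of -0.45. After median-ratio scaling 10 passed as lower, with a median of -0.28. Eif4a3, the helicase that anchors the exon junction complex, was at 7.54 to 10.7 FPKM in the PZH group and at 13.1 to 16.6 FPKM in the control group and fell by 0.64 (adjusted p = 0.000108). Its partners Rnps1 and Magoh fell by 0.65 and 0.55, and the decay factor Smg5 by 0.73. Of 25 mRNA export and cleavage factors, 17 passed as lower, among them Pabpc1, the cytoplasmic poly(A)-binding protein, which fell by 0.63, the export factor Nxt1 (-0.61), Cpsf4 (-0.55) and Fip1l1 (-0.51). After median-ratio scaling 7 of the 25 passed, without Cpsf4 (-0.39, adjusted p = 0.0541) and Fip1l1 (-0.36, adjusted p = 0.0789). Of 29 other splicing regulators, 13 passed as lower and 1 as higher, and 9 and 1 after median-ratio scaling. Rbpms fell by 1.21, the polypyrimidine tract binder Ptbp1 by 0.91, Rbfox2 by 0.79 and Khsrp by 0.74. Of 8 kinases that phosphorylate SR proteins, 2 passed as lower (Srpk1 at -0.77 and Prpf4b at -0.24) and 1 as higher (Srpk2 at 0.34); Prpf4b had -0.08 after median-ratio scaling (adjusted p = 0.419). These counts can be read against the shares over all genes given above, which also shifted with the scaling.

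**Figure D5:**
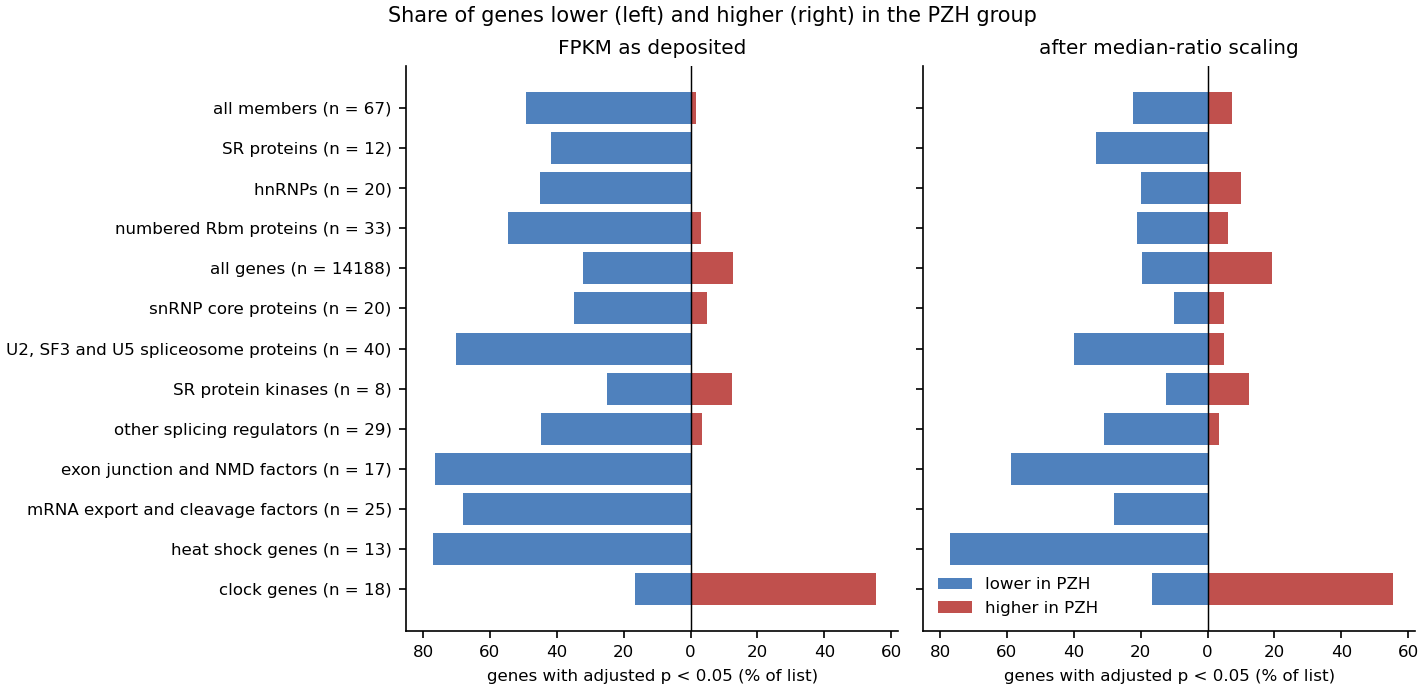
Share of the genes of each list (x axis, percent) that passed at an adjusted p below 0.05 as lower (blue, left) or higher (red, right) in the PZH group, for the FPKM as deposited and after median-ratio scaling, with list sizes in parentheses. The share of the 67 genes that passed as lower is 49.3% on the left and 22.4% on the right, beside 32.1% and 19.7% for all genes.

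Heat shock genes and genes of the daily clock were counted too. Of 13 heat shock genes, 10 passed as lower, and 10 after median-ratio scaling, with a median of -0.88. The small chaperone gene Hspb1 was at 5.81 to 17.8 FPKM in the PZH group and at 69.6 to 273 FPKM in the control group and fell by 3.56. Dnaja1, Hspd1 and Hspe1 did not pass, at 0.07, -0.02 and -0.01. Of 18 clock genes, 10 passed as higher and 3 as lower, with the same counts after median-ratio scaling, led by Dbp, which was at 11.8 to 26.1 FPKM in the PZH group against 0.470 to 3.57 FPKM in the control group and rose by 2.73. Per3 rose by 1.88 and Tef by 1.49, while Nfil3, Cry1 and Arntl passed as lower at -1.09, -1.08 and -0.75. These counts can also be read against the shares over all genes given above. The part of heat or the clock in the values of the RNA-binding protein genes was not tested.

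Marker genes of liver cell types were counted in the same way, and some of them passed. Over all genes, 12.7% passed as higher and 32.1% as lower as deposited, and 19.3% and 19.7% after median-ratio scaling. All hepatocyte markers were present, and 3 of 6 passed as higher (Alb by 0.68, Ttr by 0.68, Cps1 by 0.85), with the summed FPKM of the 6 at 41600 to 58050 in the PZH group against 23560 to 37440 in the control group. Alb alone was at 33360 to 46360 FPKM against 18020 to 29480 FPKM and made up most of that sum. Apoa1, Serpina1a and Tat did not pass, at 0.28, 0.07 and 0.32. All 4 cycling cell markers passed as higher, with a summed 5.32 to 13.1 FPKM against 1.43 to 2.96 FPKM. Of 4 cholangiocyte markers, Sox9 fell by 1.64 and the other 3 did not pass, with a summed 5.40 to 7.59 FPKM against 11.9 to 18.8 FPKM. The lower sum came from Sox9, with a PZH mean of 2.73 FPKM against 10.7 FPKM in the control group. The means of Krt19 were 2.88 against 3.07 FPKM, those of Krt7 0.197 against 0.230 FPKM and those of Epcam 0.901 against 0.567 FPKM. Of 6 macrophage markers 2 passed as higher and 1 as lower (327 to 514 FPKM against 301 to 419 FPKM in sum), and of 6 stellate cell and myofibroblast markers 1 passed as higher and 2 as lower (85.7 to 140.7 FPKM against 71.3 to 121 FPKM). Endothelial markers had 1 of 5 lower (72.4 to 95.1 FPKM against 78.8 to 93.2 FPKM) and erythroid markers 1 of 4 higher (378 to 853 FPKM against 522 to 764 FPKM). Lymphocyte markers (6 genes, 8.07 to 11.4 FPKM against 4.08 to 15.6 FPKM) and neutrophil markers (4 genes, 5.67 to 119 FPKM against 9.40 to 46.8 FPKM) had 0 that passed (limma, 0 at an unadjusted p below 0.05). After median-ratio scaling the endothelial call turned to 1 higher and 0 lower (limma, Kdr higher and the call of Pecam1 lost), macrophage markers had 3 higher and 0 lower, hepatocyte markers 4 higher, and cholangiocyte markers gained 1 higher (Epcam). The part of these cell types in the lower values of the RNA-binding protein genes was not tested.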

How the data were processed

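The series holds 12 mouse liver RNA samples, 6 per group, each labelled as a separate mouse. The authors deposited FPKM per transcript from ribosomal RNA-depleted, strand-specific paired-end libraries; their processing notes name Trimmomatic, HISAT2 and StringTie with GRCm38. From the deposited FPKM table, 29876 of 29883 transcripts were matched to GENCODE M21 by identifier and summed by gene. The low FPKM of genes with a single transcript fell on whole-fragment steps most often at a depth of 26800000 to 42800000 fragments per mouse, but only 3.2 to 6.31% lay on steps, which was too few to rebuild counts or to give intervals from them.

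Group means were compared with limma (version 3.58.1, R 4.3.3) on log2(FPKM + 1), without a filter, over all transcripts, all genes, all usage ratios or all coding segments, with Benjamini-Hochberg adjustment over the whole table; the scripts were tested on simulated data. Single values had an exact permutation test over 924 labellings. Usage ratios were log2 of a transcript's FPKM + 1 over that of its gene's other transcripts + 1. Named genes were 13 fixed ones, the 8 largest falls and rises among gene sums that passed, the 5 most abundant, the 6 largest falls and rises among transcripts, the usage differences that passed and, for other lists, up to 4 genes with the largest changes that passed. Further members and list genes are named to complete the account of a family or list and were chosen after their values were seen. The members and lists were chosen with earlier results of these data known. Alternatives were another pseudocount, a filter at a mean of 1 FPKM, 2 scalings, other variance models, a replicate block and each mouse left out. The long noncoding RNA table was not used. Some results of the other lists are not reported here.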

Additional observations from a re-analysis of the deposited data

Results flagged for a closer look

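Among the named genes and transcripts, 72 groups of 6 mice were examined for a mouse whose gap to its nearest neighbour took up an unusually large part of the group's range on the log2 scale (Dixon's ratio above its 95% critical value), and 6 were found, where chance alone gives about 1 in 20. Some groups share values, since single listed transcripts repeat their gene sums and Srsf7-208 is part of the Srsf7 sum. An excess over chance can therefore not be read from the 6. Control 4 was the lowest control mouse for the Srsf7 gene sum (7.98 FPKM against 10.51 to 12.3 in the others, ratio 0.629), for Srsf7-208 (5.46 FPKM against 8.02 to 9.32, ratio 0.712) and for the Srsf2 gene sum (26.5 FPKM against 34.2 to 39.4, ratio 0.64). PZH 2 was the highest PZH mouse for the Srsf2 gene sum (30.4 FPKM against 19.0 to 22.4, ratio 0.647). Control 1 was the lowest control mouse for the Rbm39 gene sum (16.97 FPKM against 23.3 to 26.9, ratio 0.686). Control 6 was the highest control mouse for Hnrnpm-202 (1.10 FPKM against 0.533 to 0.640, ratio 0.784).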

How the results depend on the processing

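After median-ratio scaling, 5 genes were higher and 15 lower (1 and 33 as reported), and 5 transcripts were higher and 12 lower (2 and 33 as reported); Rbm39 turned to 0.12 and Rbm47-207 to 0.02. An equal FPKM sum gave 38 lower genes in the set and 4837 over all 14188 genes, against 33 and 4560 in the FPKM as deposited. For the scaled transcripts and the settings below, counts over all genes are not given here. A shift of the whole table is therefore not told apart from one of the set in those counts. With a pseudocount of 0.1, 13 transcripts passed the 2-fold criterion and 0 usage differences passed; with a mean of at least 1 FPKM, 1 transcript was higher and 1 usage difference passed; without variance moderation 1 transcript was higher; and 0 coding segments passed when these were used in place of whole transcripts, an alternative added after the data were seen. With the replicate block, 32 genes and 14 transcripts were lower and 0 usage differences passed. Mice sharing a replicate number had correlations of -0.0784 to 0.0929, so the numbers do not pair the mice. With 1 mouse left out, 1 to 2 genes were higher and 27 to 39 lower, 1 to 4 transcripts higher and 20 to 36 lower, 4 to 8 passed the 2-fold criterion, and 0 to 4 usage differences passed; Rbm39 ran from -0.15 to 0.04, the latter without PZH 5. The cause of these changes was not tested, apart from fewer transcripts being tested under the filter. Of the 24 named gene sums, all kept their call with the mean-variance trend, without variance moderation and with a pseudocount of 0.1. Low levels limit isoform results: 73 of the 206 transcripts had a mean below 1 FPKM and 47 were at 0 in at least 1 mouse.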

Other observations

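Promoter windows of 250 bases before the annotated start (RefSeq, GRCm38.p6) were at hand for 58 of the 67 genes, as 76 windows, and were searched on both strands for 4 motifs. The cold-response element described for Cirbp, TCCCCGCC, was in 5 of the 76 windows (Cirbp, Hnrnpa0, Hnrnpf, Rbm19, Srsf7), against 4.64% of 32851 windows of all genes. The heat shock element core GAANNTTC was in 6 (Hnrnpa2b1, Hnrnpf, Hnrnpl, Rbm45, Srsf9, Tra2b), against 6.69%. The E-box CACGTG was in 7 (Hnrnpa3, Hnrnpd, Hnrnpf, Rbm15b, Rbm19, Rbm43, Rbm46), against 6.02%. The D-box core TTANGTAA was in 3 windows of 2 genes (Hnrnpa2b1, Hnrnph1), against 2.06%. Of the 28 matched genes that passed as lower, 2 held the cold-response element, 2 the heat shock element core, 3 the E-box and 0 the D-box core. A match is a run of letters and not a shown site.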
